A study of Mus musculus with 22 samples.

Results

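The 9 genes followed here respond to glucocorticoids or set how strongly a cell responds to them: Hsd11b1, Nr3c1, Fkbp5, Tsc22d3, Sgk1, Zbtb16, Per1, Mt1 and Mt2. They were taken by symbol, and each of the 9 was found among the 20668 genes counted in hypothalamic nuclei and among the 16304 genes counted in hypothalamic whole cells. Glucocorticoids (corticosterone in mice) cross the cell membrane and bind the glucocorticoid receptor, which HSP90 and its co-chaperones hold ready in the cytoplasm. The bound receptor moves to the nucleus and acts at glucocorticoid response elements, and it also restrains some genes. Several of its targets, among them Tsc22d3 and Fkbp5, move within hours and serve as readouts of the hormone in brain tissue.

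All 22 mice were male ob/ob animals of 11 weeks, which lack leptin and are known for raised circulating corticosterone, and each received a single icv injection of 3 µg FGF1 or of saline vehicle. The food of the vehicle mice was matched by pair-feeding (PF) to what the FGF1 mice ate. Nuclei (snRNA-seq) were isolated 24 h after dosing (Day 1) from 3 mice of each treatment and on Day 5 from 2 of each, all on Purina 5008 chow. Whole cells (scRNA-seq) were isolated on Day 5 only, from 6 mice of each treatment in another cohort, on Altromin 1310 chow, and the authors had removed neurons from them. The hour of tissue collection within the day and the hormone itself were not analysed here.

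Each mouse was 1 library. Day 1 nuclei of the FGF1 mice were shallower, with a median of 2029 to 2816 unique molecular identifiers (UMIs) per nucleus against 3178.5 to 3776 in vehicle mice, whereas the ranges overlapped on Day 5. Of the glial and vascular labels checked, 7 of 8 tanycyte markers counted as such in tanycyte nuclei (Rax did not), 8 of 8 ependymal markers in ependymal nuclei, 9 of 9 in astrocytes, 7 of 7 in vascular leptomeningeal cells (VLMC), 8 of 9 in oligodendrocytes, 7 of 8 in committed oligodendrocyte precursors (COP) and 5 of 7 in microglia. Tanycyte nuclei also carried 9 of 9 astrocyte markers and ependymal nuclei 8 of 9, at 44.0% and 40.2% of the highest level of any label. Of the neuron labels named below, Agrp, Sst, Nr5a1 and Oxt were each highest of 30 labels in the one that bears the name. The other genes in those names were not. Gm8773 ranked 2 in n13.Agrp/Gm8773, Unc13c ranked 3 in n23.Sst/Unc13c and Adcyap1 ranked 3 in n29.Nr5a1/Adcyap1. Nuclei annotated as oligodendrocytes, microglia and COP also carried neuronal RNA, with a summed level of 6 neuron markers of 19642, 23935 and 17399 CPM (median of the 6 Day 1 mice) against 22774 CPM in unmapped neurons, 9678 CPM in tanycytes, 7031 CPM in astrocytes and 6304 CPM in ependymal nuclei. Whole-cell clusters carry numbers only and are described here by number with the class that their markers gave. Cluster 0 was named tanycytes on 3 of 8 markers, the least the rule allowed, at a median of 38.9% of the highest cluster. Ependymal cells came next there, with 2 of 8 markers at 24.1%. Clusters 7 and 10 had 5 and 7 of the 8 tanycyte markers. Some of those clusters were made up mostly of cells from 1 treatment, and the cell numbers are given where they matter.

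Levels are UMIs summed per mouse and cell type, as TMM-scaled CPM. The CPM are relative to the total of the genes that passed the low-count filter in that type. These were 1456 genes in ependymal nuclei and 9441 in whole-cell cluster 0, so levels of different types are not on 1 scale. Comparisons of level between types, below and for the neuron markers above, carry that limit. Log2 fold changes are FGF1 over vehicle with their SE. A gene was called at a Benjamini-Hochberg FDR below 0.05 over all genes that edgeR's quasi-likelihood test covered in that type. Within a type, fewer cells that carry an RNA and less RNA per cell cannot be told apart in such sums. Types and clusters of the same mouse share a library, so counts of types with 1 direction are not counts of independent results.

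Tsc22d3 was the member that moved most widely. It fell after FGF1 in ependymal and tanycyte nuclei on Day 1. On Day 5 it fell in whole-cell clusters 0 (tanycytes), 1 and 4 (astrocytes) and 5 (oligodendrocyte precursors, OPC). It was not called in tanycyte clusters 7 and 10 or in merged tanycytes. Per1 fell in ependymal cells and Mt1 in COP on Day 5. Hsd11b1 was called lower only in merged astrocytes and merged tanycytes, whose clusters FGF1 and vehicle cells filled unequally. Within astrocyte cluster 1, the only cluster where it could be tested, it was not called (-0.10, FDR 0.940) and the groups overlapped. No pair of member and type was called higher in any of these tests. Mt1 and Mt2 had positive fold changes in 18 of 18 nuclear types on Day 1, without a call in any of them.

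In Day 1 nuclei, 89 of the 162 pairs of member and type passed the low-count filter over 18 types, and 2 of them were called, both lower. Both were of Tsc22d3, in types where it passed that filter mainly through the vehicle mice. Over all genes, 1.05% of pairs were called and 0.393% were called lower. On Day 5, 68 of 99 pairs in 11 nuclear types could be tested with 2 mice a group. edgeR called 0 of them, with 4 at an unadjusted p below 0.05, where 0.288% of all pairs were called, and DESeq2 also called 0. In Day 5 whole cells, 88 of 144 pairs in 16 clusters were tested and 6 were called, all lower, where 1.75% of all pairs were called and 0.896% were called lower. With clusters merged into 11 classes, 67 of 99 pairs were tested and 6 were called lower, against 4.18% of all pairs called and 2.11% called lower. The classes reuse the same cells, and the calls of Mt1 in COP and Per1 in ependymal cells are those of clusters 9 and 6. The median log2 fold change of the tested member pairs was 0.34 in Day 1 nuclei, -0.06 in Day 5 nuclei and -0.20 in Day 5 clusters, beside 0.01, 0.00 and 0.00 for all genes. The Day 1 value mixes members that differed. Mt1 and Mt2, tested in 18 types each, had medians of 1.25 and 1.48, and Sgk1, Per1 and Hsd11b1 of 0.35, 0.03 and 0.00. The medians of Tsc22d3, Zbtb16, Fkbp5 and Nr3c1 were -1.03, -0.78, -0.26 and -0.25.

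**Figure D1:**
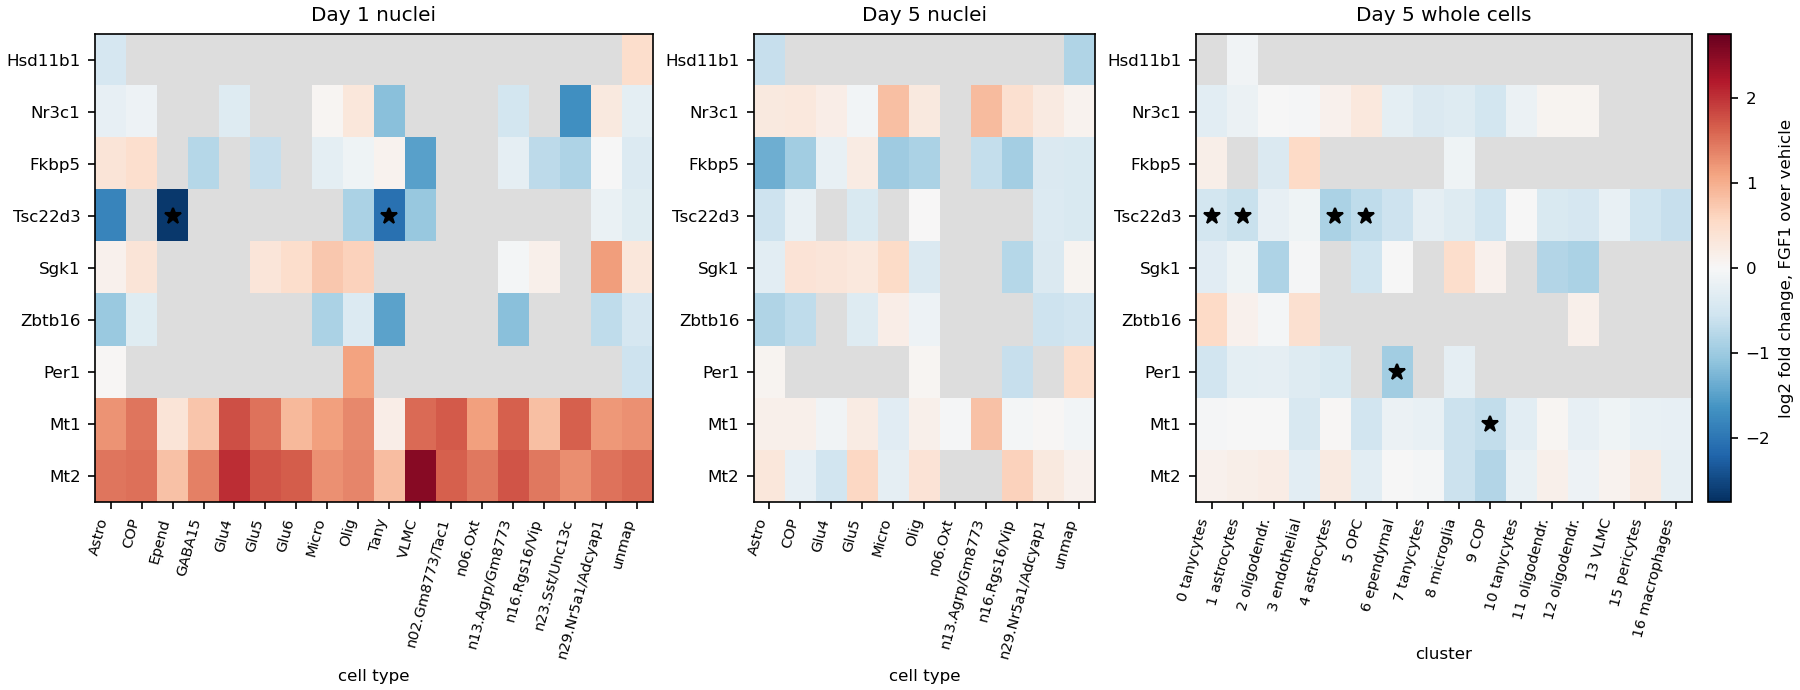
Log2 fold change (FGF1 over vehicle, colour scale) of the 9 genes (rows) in each cell type (columns) of Day 1 nuclei, Day 5 nuclei and Day 5 whole-cell clusters. A star marks an FDR below 0.05 and grey a pair that was not tested. Tsc22d3 is negative in 7 of 7 tested types on Day 1 and in 16 of 16 clusters on Day 5 (14 with batch in the model), and Mt1 and Mt2 are positive in 18 of 18 types on Day 1.

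Hsd11b1 (chr1:193221634-193264075, minus strand, GRCm38) encodes the enzyme that regenerates active glucocorticoid inside cells. In vehicle whole cells its mean level was 71.9 CPM in astrocyte cluster 1 and 69.0 CPM in pericytes, where 3 of 6 mice held no UMI of it. In VLMC the mean was 110 CPM over 4 mice (25.5 to 291), and it was 49.3 CPM without replicate 29, whose value came from 3 UMIs in 11 cells. The ranges of these clusters overlapped. The gene was sparse, with 1359 UMIs in all whole cells and 520 in all nuclei. In nuclei it could be tested in 2 types on each day and none was called.

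On Day 5, with the astrocyte clusters 1 and 4 merged, Hsd11b1 reached a lowest, median and highest level of 13.5, 22.6 and 44.3 CPM in FGF1 mice and of 57.8, 67.7 and 75.6 CPM in vehicle mice. The groups did not overlap, where 0.944% of all pairs in the classes lay lower without overlap, and FGF1 was lower in 6 of 6 batches. The log2 fold change was -1.16 ± 0.19 (FDR 0.000534), and leaving out any mouse gave -1.37 to -1.05. The 2 clusters held different shares of each treatment: cluster 1 had 1531 FGF1 and 7940 vehicle cells, and cluster 4 had 3412 FGF1 and 697 vehicle cells. Within cluster 1 alone the values were 0 to 104 CPM in FGF1 mice and 60.8 to 82.9 CPM in vehicle mice, which overlapped, and the log2 fold change was -0.10 ± 0.22 (FDR 0.940). In cluster 4 the levels were 13.6 to 28.7 CPM in FGF1 mice and 11.4 to 58.8 CPM in vehicle mice, also overlapping and too low for the test. The class value thus spans clusters that the 2 treatments filled unequally, and the part of that in the fall was not tested.

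In tanycytes (clusters 0, 7 and 10 merged), the lowest, median and highest Hsd11b1 levels were 0, 2.61 and 4.0 CPM in FGF1 mice and 8.12, 8.74 and 10.9 CPM in vehicle mice. No FGF1 mouse reached the lowest vehicle mouse. The log2 fold change was -1.62 ± 0.28 (FDR 0.00145) and rested on 48 UMIs in 9204 FGF1 cells and 73 UMIs in 5200 vehicle cells. The vehicle mice alone lifted the gene past the low-count filter, so the pair entered the test through the group where it is high. Cluster 0 made up 5458 of the FGF1 cells and 4051 of the vehicle cells, and cluster 7 made up 2721 and 590. Too low for the test in each cluster, the gene lay at 0 to 3.78 CPM in FGF1 mice and 7.19 to 13.3 CPM in vehicle mice in cluster 0, without overlap, whereas the groups overlapped in cluster 7 (2.62 to 5.28 against 0 to 7.93 CPM) and in cluster 10 (0 to 9.22 against 0 to 49.6 CPM). In the FGF1 mouse at 0, a count of 0 allows up to 7.50 CPM on the same TMM scale (3 counts), by counting error alone. Oligodendrocytes were too low for the test and had the same order, with 0 to 4.61 CPM in FGF1 mice and 8.22 to 16.3 CPM in vehicle mice. Cluster 11 held 1212 of their 3234 FGF1 cells and 166 of their 6728 vehicle cells, and in cluster 2 alone the groups were also apart, at 0 to 7.88 against 9.65 to 18.9 CPM. Outside astrocytes, VLMC and pericytes, however, the vehicle medians of all classes lay between 0 and 16.5 CPM, and astrocyte markers were also counted in tanycytes, with 9 summing to 2578 to 3839 CPM in FGF1 mice and 3201 to 3820 CPM in vehicle mice and 3 of the 9 called lower. Free RNA from other cells gives low levels of this kind, and its part and that of the unequal clusters in the tanycyte and oligodendrocyte values were not tested.

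**Figure D2:**
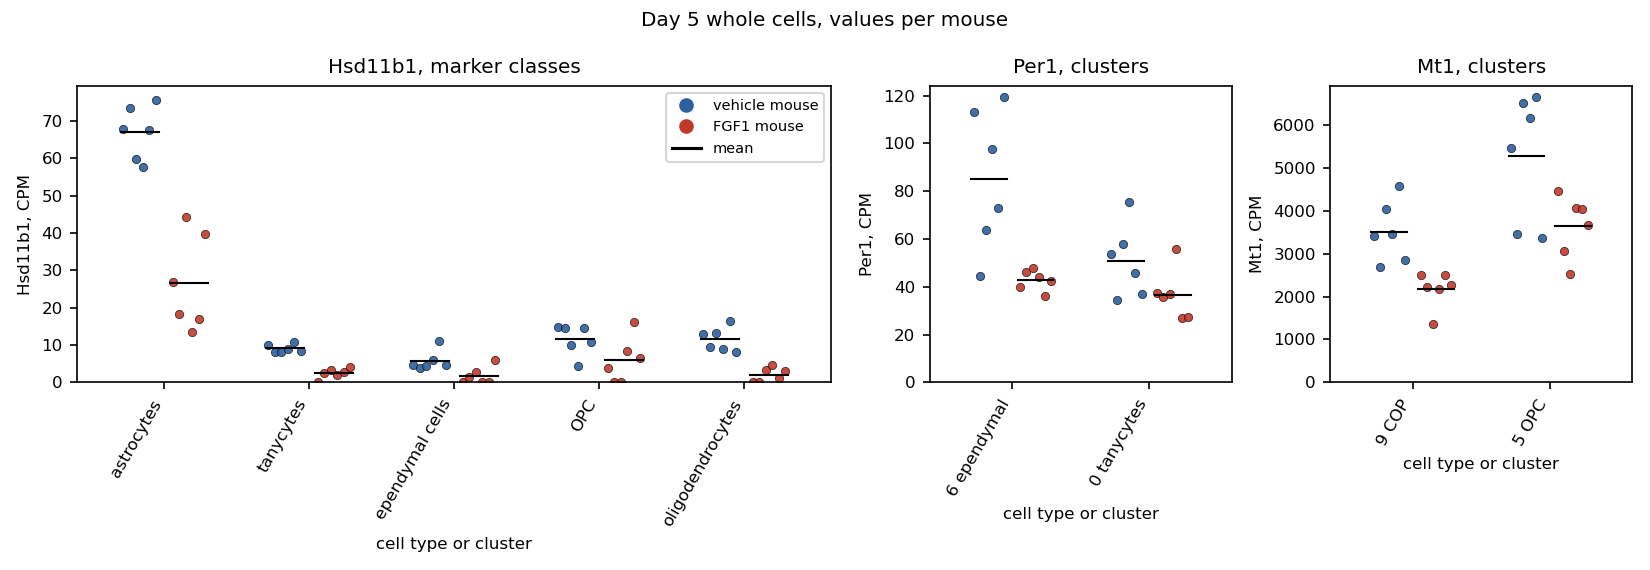
Levels (CPM, linear axes from 0) of Hsd11b1 in 5 whole-cell classes, of Per1 in clusters 6 and 0 and of Mt1 in clusters 9 and 5 on Day 5. Points are mice, bars are group means, and each group has 6 mice. Hsd11b1 in astrocytes runs from 13.5 to 44.3 in FGF1 mice and from 57.8 to 75.6 in vehicle mice, whereas the Per1 groups touch in cluster 6.

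Nr3c1 (chr18:39410545-39519421, minus strand), the glucocorticoid receptor gene, was called in no type. In tanycyte nuclei on Day 1 its levels were 50.3 to 100 CPM in the 3 FGF1 mice and 108 to 168 CPM in the 3 vehicle mice, which did not overlap (log2 fold change -1.16 ± 0.42, FDR 0.109). In n23.Sst/Unc13c neurons they were 62.3 to 136 and 225 to 449 CPM (-1.69 ± 0.50, FDR 0.484). In whole cells the log2 fold changes lay between -0.50 and 0.29 over 13 clusters, and 0 groups were apart. Its vehicle means ran from 62.5 CPM in ependymal cells to 164 CPM in oligodendrocyte cluster 11 over the whole-cell clusters, and from 14.9 CPM in n06.Oxt to 321 CPM in n13.Agrp/Gm8773 neurons over the Day 1 nuclei.

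Fkbp5 (chr17:28399094-28517527, minus strand) encodes a co-chaperone of the receptor complex that lowers hormone binding and is itself induced by the receptor. Its vehicle level was highest in VLMC nuclei on Day 1 (1441 CPM) and in Agrp neurons on Day 5 (644 CPM). No type was called. On Day 5 its fold change was negative in 9 of 10 tested nuclear types, and the FGF1 mice lay below the vehicle mice without overlap in 7 of 11 types, against 19% of all pairs with 2 mice a group. In astrocyte nuclei the 2 FGF1 mice had 30.1 and 46.1 CPM and the 2 vehicle mice 79.7 and 141 CPM (log2 fold change -1.34 ± 0.41, FDR 0.153). Without vehicle replicate 28 the value was -1.78 with an FDR of 0.0439, in a fit that leaves 1 vehicle mouse, assumed to vary like the 2 FGF1 mice. On Day 1 it was negative in 10 of 13 types, with 279 to 703 CPM in the FGF1 mice and 898 to 2170 CPM in the vehicle mice in VLMC (-1.49 ± 0.69, FDR 0.318, 2 FGF1 mice because the third had fewer than 10 nuclei). In whole cells 2 of 4 tested clusters were negative, and 1 of 6 tested classes was, with a class median of 0.15. The nuclei and the whole cells came from cohorts on different chow, and these 2 tests were not compared.

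Tsc22d3 (chrX:140539528-140600659, minus strand), also called GILZ, encodes a leucine zipper protein that carries much of the anti-inflammatory action of glucocorticoids. Of its 3 RefSeq promoter windows (250 bases before a transcript start; GRCm38.p6), 1 held a half-site of the glucocorticoid response element, AGAACA or its reverse complement TGTTCT, searched on both strands, 185 bases before that start. The stretch outside exons, chrX:140600660-140600772 on the minus strand, is shown because this gene moved most widely, with the half-site in capitals.
Tsc22d3: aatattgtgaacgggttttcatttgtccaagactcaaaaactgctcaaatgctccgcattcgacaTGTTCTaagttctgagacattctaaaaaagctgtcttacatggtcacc
A half-site was present in 16.1% of all windows of this kind, and a match says nothing about binding.

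In ependymal nuclei on Day 1, Tsc22d3 was at 59.6, 71.2 and 34.2 CPM in FGF1 replicates 1, 2 and 3 and at 445, 342 and 344 CPM in the vehicle replicates. Every FGF1 mouse lay far below every vehicle mouse, also within each of the 3 batches, which each held 1 mouse of both groups. The log2 fold change was -2.65 ± 0.58 (FDR 0.00379), from 6 UMIs in 59 FGF1 nuclei and 38 UMIs in 47 vehicle nuclei. Each FGF1 mouse held 1 to 3 UMIs and each vehicle mouse 11 to 15. The gene thus passed the low-count filter through the vehicle mice alone, the group where it is high. Without vehicle replicate 1 the log2 fold change was -2.51 with an FDR of 0.066. With all nuclei thinned to an equal number of UMIs, 4 UMIs against 15 were left and the gene did not pass the low-count filter, so no test was had. In this label the FGF1 mice also had less of the ependymal markers themselves, with 8 markers summing to 2254 to 3930 CPM against 5841 to 7709 CPM in vehicle mice and 4 of the 8 called lower, and less of the astrocyte markers (889 to 2264 against 3380 to 3780 CPM, 3 of 9 called lower). The part of these marker differences in the Tsc22d3 value was not tested. In ependymal nuclei 8.86% of all genes tested were called lower.

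Tanycytes are glia of the ventricle floor that send processes into the hypothalamus. In their nuclei the Day 1 levels of Tsc22d3 were 90.7, 67.0 and 83.7 CPM in FGF1 replicates 1, 2 and 3 and 398, 431 and 161 CPM in vehicle replicates 1, 2 and 3. The groups did not overlap, although vehicle replicate 3 came closer to the FGF1 mice than the others. The log2 fold change was -2.05 ± 0.44 (FDR 0.0118; 37 UMIs in 187 nuclei against 99 UMIs in 87 nuclei). Here too the gene passed the low-count filter mainly through the vehicle mice, with 9 to 46 UMIs each against 5 to 24 in FGF1 mice. The gene lost the call without vehicle replicate 1 (-1.93, FDR 0.0832), without FGF1 replicate 2 (-1.87, FDR 0.0666) and with batch in the model (-1.89, FDR 0.0703), with the same direction each time. In thinned nuclei, with 10 UMIs against 32, it did not pass the low-count filter here either. Ependymal markers in this label summed to 184 to 329 CPM in FGF1 mice and 682 to 1189 CPM in vehicle mice, and astrocyte markers to 1088 to 2123 against 2566 to 4736 CPM, and their part was not tested. Of all genes tested in tanycyte nuclei, 3.76% were called lower.

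In astrocyte nuclei the Day 1 values were 182, 47.9 and 66.8 CPM in FGF1 replicates 1, 2 and 3 and 534, 348 and 196 CPM in the vehicle replicates. The groups were again apart, but FGF1 replicate 1 and vehicle replicate 3 lay close together. The log2 fold change of -1.82 ± 0.61 was not called (FDR 0.261), and without FGF1 replicate 1 it was -2.70 with an FDR of 0.0321. Over the 18 nuclear types, Tsc22d3 was lower without overlap in 7, against 7.82% of all pairs, and its fold change was negative in 7 of the 7 types that could be tested. On Day 5, astrocyte nuclei held 195 and 210 CPM in the FGF1 mice and 275 and 325 CPM in the vehicle mice (-0.58, FDR 0.522). Tanycyte and ependymal nuclei were too few on Day 5 for a test.

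**Figure D3:**
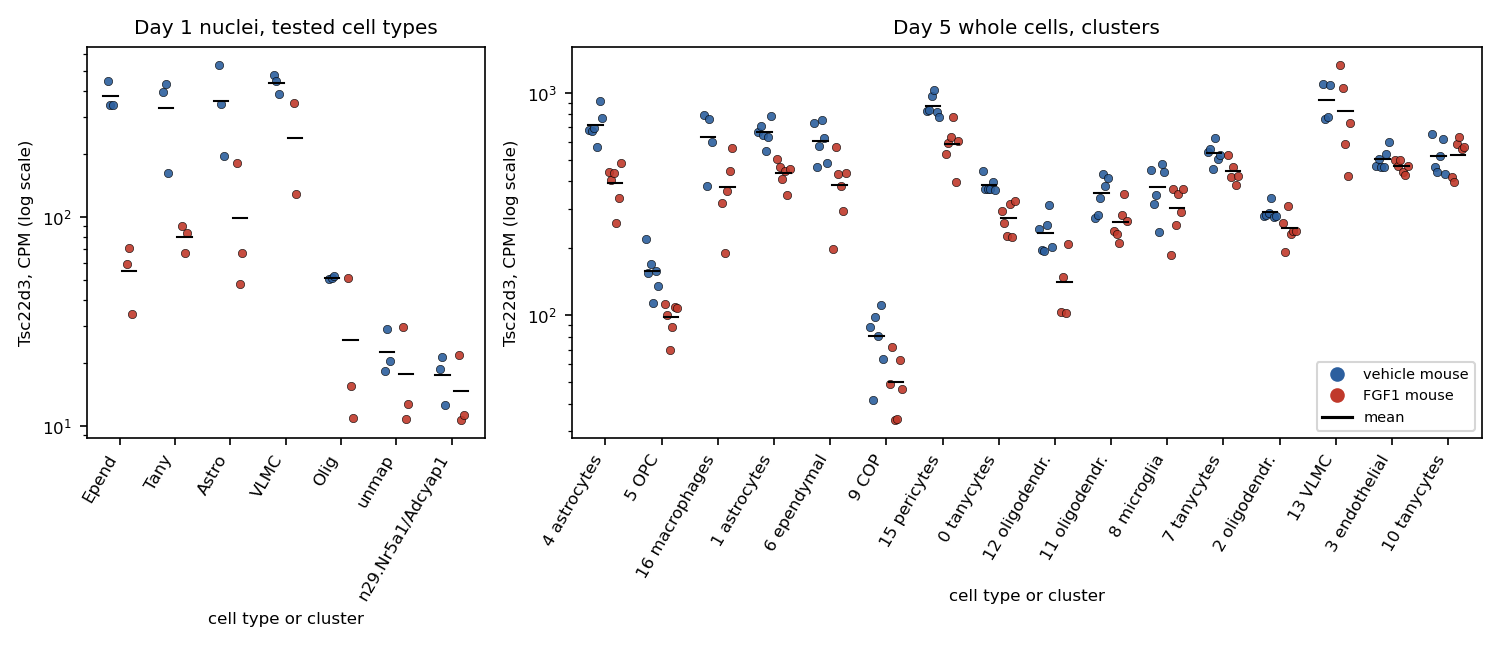
Tsc22d3 level (CPM, log axis) per mouse in the 7 tested types of Day 1 nuclei (left) and in the 16 tested clusters of Day 5 whole cells (right). Points are mice and bars are group means. On Day 1 the ependymal FGF1 mice lie between 34.2 and 71.2 CPM and the vehicle mice between 342 and 445 CPM, and on Day 5 the fold change is negative in 16 of 16 clusters (14 to 16 under the other settings tried).

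In whole cells on Day 5, Tsc22d3 had a negative fold change in 16 of 16 clusters (15 by DESeq2 and without the low-count filter, 14 with batch in the model), from -0.86 to -0.01 with a median of -0.48, and 4 clusters were called. The clusters come from the same mice, so their directions are not independent. The widest difference was in astrocyte cluster 4, where the lowest, median and highest mouse had 259, 421 and 482 CPM after FGF1 and 570, 689 and 915 CPM after vehicle. Every FGF1 mouse lay below every vehicle mouse, as it did in 0.746% of all pairs, and the log2 fold change was -0.86 ± 0.14 (FDR 0.000122). Markers of COP were higher in FGF1 mice in this cluster (347 to 471 against 165 to 319 CPM, 1 of 8 called higher), and their part was not tested. In astrocyte cluster 1 the values were 348, 451 and 502 CPM against 547, 657 and 788 CPM, also without overlap (-0.62 ± 0.13, FDR 0.0116). With both clusters merged, astrocytes gave -0.83 ± 0.12 (FDR 2.51e-05), and each cluster on its own kept the call without any 1 mouse.

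Tanycyte cluster 0 held 225, 276 and 326 CPM in FGF1 mice and 368, 369 and 446 CPM in vehicle mice. The groups were apart in this cluster (-0.50 ± 0.11, FDR 0.00685). With clusters 0, 7 and 10 merged, tanycytes were also apart, at 268 to 353 CPM against 370 to 455 CPM, but the fold change of -0.28 was not called (FDR 0.0994). Merged oligodendrocytes (clusters 2, 11 and 12) were likewise apart, at 186 to 240 CPM against 256 to 314 CPM, and not called (-0.32 ± 0.10, FDR 0.0884). These classes also span clusters filled unequally, and within clusters 7, 10, 2, 11 and 12 taken singly the groups overlapped and none was called. OPC cluster 5 held 69.8, 104 and 112 CPM against 113, 156 and 220 CPM, and the highest FGF1 mouse came close to the lowest vehicle mouse. Its log2 fold change was -0.69 ± 0.16 (FDR 0.0142), and -0.57 with an FDR of 0.0708 without vehicle replicate 20. Merged with the small cluster 17, OPC held 71.4, 102 and 122 CPM against 111, 154 and 218 CPM, which overlapped, and FGF1 was lower in 5 of 6 batches. The gene was called in this class too (-0.68 ± 0.16, FDR 0.0101), and not without vehicle replicate 20 (-0.57, FDR 0.0535). Neuron markers in cluster 5 were lower in FGF1 mice (1175 to 1358 against 1444 to 1606 CPM), and their part was not tested. In ependymal cluster 6 the groups overlapped, at 199, 405 and 570 CPM against 463, 602 and 754 CPM (-0.56 ± 0.16, FDR 0.0685), and the gene was called there with batch in the model (-0.62, FDR 0.023) and by DESeq2 (-0.58, FDR 0.0311).

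Whether the fall differed between clusters was tested for all 9 members over the 10 pairs among clusters 0, 1, 2, 5 and 6. An exact two-sided permutation test over mice called 0 of these 90 differences after Benjamini-Hochberg adjustment, with 15 at an unadjusted p below 0.05 and a smallest p of 0.00216, the smallest that 6 against 6 mice allow. The smallest adjusted p was 0.195, and 1 difference alone at that smallest p could not have passed over 90 tests. The calls of Tsc22d3 in clusters 0, 1 and 5 and not in clusters 2 and 6 were thus not shown to be a difference between them, and cluster 4 and the other clusters were not compared in this test. In vehicle mice its level was highest in VLMC (930 CPM, 4 mice), pericytes (878 CPM) and astrocyte cluster 4 (718 CPM) and lowest in COP (80.4 CPM), and the COP range lay below that of every other cluster.

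Sgk1 (chr10:21882184-21999903, plus strand) encodes a serum- and glucocorticoid-regulated kinase that acts on ion transport. Of its 6 promoter windows, 1 held the full glucocorticoid response element, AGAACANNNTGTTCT read on both strands, 189 bases before the start, as did 3 of the 32851 RefSeq windows (0.00913%). Every full element also contains the half-sites described for Tsc22d3. The window, chr10:21993640-21993889 on the plus strand, is shown because Sgk1 was the member with this element, which is in capitals.
Sgk1: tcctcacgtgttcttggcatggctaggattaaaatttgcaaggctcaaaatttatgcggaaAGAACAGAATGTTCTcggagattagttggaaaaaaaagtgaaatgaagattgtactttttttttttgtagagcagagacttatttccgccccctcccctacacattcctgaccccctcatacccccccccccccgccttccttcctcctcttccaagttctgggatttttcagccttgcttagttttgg
No type was called on either day.

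On Day 1, Sgk1 had a positive fold change in 9 of 10 tested nuclear types and was higher without overlap in 6 of 18, against 7.97% of all pairs. In n29.Nr5a1/Adcyap1 neurons its level was 68.5, 111 and 90.1 CPM in FGF1 replicates 1, 2 and 3 and 37.2, 44.3 and 37.7 CPM in the vehicle replicates. All FGF1 mice were higher (1.15 ± 0.30, FDR 0.171), and without FGF1 replicate 1 the value was 1.35 with an FDR of 0.0254. In oligodendrocyte nuclei the values were 308, 236 and 212 CPM against 195, 141 and 156 CPM (0.63 ± 0.27, FDR 0.844). Ependymal nuclei were too low for the test, at 358, 237 and 410 CPM against 88.9, 31.1 and 143 CPM from 34 and 9 UMIs in all.

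In whole cells on Day 5 Sgk1 had a negative fold change in 8 of 10 tested clusters (6 with batch in the model), with a median of -0.21, and in 6 of 8 tested classes. They included the oligodendrocyte clusters, where its level was highest, with vehicle means of 911 to 1171 CPM in clusters 2, 11 and 12. The log2 fold changes of these clusters were -0.85, -0.80 and -0.87, none of them called. In cluster 2 the lowest, median and highest levels were 260, 496 and 736 CPM in FGF1 mice and 544, 779 and 1432 CPM in vehicle mice, which overlapped. Cluster 12 included 4 of the 6 FGF1 mice, because the other two had fewer than 10 cells. OPC cluster 5 had 44.4, 82.3 and 99.4 CPM against 98.0, 112 and 178 CPM, a slight overlap (-0.54 ± 0.18, FDR 0.0929), and it was called with batch in the model (-0.59, FDR 0.0436) and without vehicle replicate 35 (-0.58, FDR 0.0385). With cluster 17 merged in, the OPC groups were apart and not called (-0.54 ± 0.17, FDR 0.0643). In COP cluster 9 the groups overlapped, at 608 to 659 CPM in FGF1 mice and 473 to 881 CPM in vehicle mice (0.13 ± 0.16, FDR 0.781). Microglia had a positive value (0.48 ± 0.21, FDR 0.350), with overlap.

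Zbtb16 (chr9:48654297-48836222, minus strand), a zinc finger repressor induced by glucocorticoids, had negative fold changes in 8 of 8 tested nuclear types on Day 1 and in 6 of 7 on Day 5, and positive ones in 4 of 5 whole-cell clusters. No pair was called. In n13.Agrp/Gm8773 neurons on Day 1 the FGF1 mice had 81.3 to 126 CPM and the vehicle mice 145 to 277 CPM, which were apart (-1.14 ± 0.45, FDR 0.373). In tanycyte nuclei the groups overlapped, at 16.8 to 100 against 71.8 to 99.4 CPM (-1.47 ± 0.65, FDR 0.192). With at least 30 nuclei a mouse the gene was called there (-2.42, FDR 0.0336). That limit left out replicate 3 of both treatments, with 25 FGF1 and 20 vehicle nuclei.

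Per1 (chr11:69095217-69109960, plus strand) is a repressor of the circadian clock and a direct target of the receptor. It fell in ependymal cluster 6 on Day 5, where the lowest, median and highest levels were 36.3, 43.1 and 47.9 CPM in FGF1 mice and 44.5, 85.2 and 119 CPM in vehicle mice. The groups touched, as 1 vehicle mouse lay within the FGF1 range, and FGF1 was lower in 6 of 6 batches. The value of FGF1 replicate 6, 39.8 CPM against 44.5 CPM in its batch, came from 1 UMI in 19 cells. The log2 fold change was -0.96 ± 0.20 (FDR 0.00938; 138 and 243 UMIs), it was -0.95 with an FDR of 0.0210 without that mouse, and without vehicle replicate 20 it was -0.84 with an FDR of 0.0549. DESeq2 gave no adjusted p for this gene. Its fold change was negative in 7 of 7 tested clusters, and in tanycyte cluster 0 it was -0.52 ± 0.19 (FDR 0.105), called without FGF1 replicate 21 (-0.68, FDR 0.0256) and without vehicle replicate 35 (-0.61, FDR 0.0466). On Day 1 it was tested in 3 nuclear types, 2 of them positive, and called in none.

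Mt1 (chr8:94179082-94180327, plus strand) and Mt2 (chr8:94172664-94173568, plus strand) are neighbours that encode metallothioneins, small proteins that bind zinc and copper and are induced by metals and by glucocorticoids. The exons of Mt2 overlap those of Gm45774 on the other strand. Whether reads are shared between Mt1 and Mt2, or with that gene, was not examined. Their RefSeq windows are shown because the fold changes of both genes were positive in 18 of 18 nuclear types on Day 1. Capitals mark a loose form of the core of the metal response element, TGCNCNC on either strand. Mt1 held 1 match and Mt2 held 5 in chr8:94178839-94179081 and chr8:94172368-94172617, both on the plus strand, and 44.4% of all windows held at least 1. The usual core is TGCRCNC, where R is A or G, and TGCTCTC and GGGAGCA in the Mt2 window fit the loose form only.
Mt1: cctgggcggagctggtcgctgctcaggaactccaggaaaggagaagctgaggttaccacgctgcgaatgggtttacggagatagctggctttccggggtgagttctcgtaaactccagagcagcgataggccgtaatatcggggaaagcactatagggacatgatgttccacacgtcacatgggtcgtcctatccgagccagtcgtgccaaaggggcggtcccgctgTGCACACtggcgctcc
Mt2: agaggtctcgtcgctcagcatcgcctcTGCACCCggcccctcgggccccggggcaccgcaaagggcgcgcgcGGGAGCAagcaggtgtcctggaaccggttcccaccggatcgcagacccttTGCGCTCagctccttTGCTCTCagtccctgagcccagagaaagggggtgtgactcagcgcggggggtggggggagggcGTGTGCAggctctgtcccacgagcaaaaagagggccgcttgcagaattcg
The Mt2 window overlaps an exon of Gm45774.

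On Day 1 the fold changes of Mt1 (0.19 to 1.77, median 1.25) and Mt2 (0.81 to 2.50, median 1.48) were positive in 18 of 18 nuclear types, and the FGF1 mice were higher without overlap in 10 types for Mt1 and 16 for Mt2, against 7.97% of all pairs. The smallest FDR was 0.264 for Mt1, and 0.0828 for Mt2 in VLMC. Summed over all nuclei of a mouse, Mt1 was at 4563, 1309 and 1092 CPM in FGF1 replicates 1, 2 and 3 and at 992, 1291 and 612 CPM in the vehicle replicates. FGF1 replicate 1 stood far above the others, and the other 2 FGF1 mice overlapped the vehicle mice. Mt2 was at 2413, 838 and 803 CPM against 521, 577 and 288 CPM, so here the other 2 FGF1 mice were also above every vehicle mouse. FGF1 replicate 1 also had 2.73% of its UMIs in ribosomal protein genes, against 1.01 to 1.68% in the other 5 Day 1 mice, and the part of this in its metallothionein values was not tested.

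Without FGF1 replicate 1, Mt1 was positive in 16 of 18 types with a median of 0.51 and a range of -0.15 to 1.29, and Mt2 in 18 of 18 with a median of 1.00 and a range of 0.29 to 1.53. Mt2 was then called in n29.Nr5a1/Adcyap1 neurons (0.99, FDR 0.0385). Nuclear types of the same mouse share a library, so these counts are not independent. DESeq2 called Mt2 in VLMC (2.40, FDR 0.00186), in n29.Nr5a1/Adcyap1 neurons (1.5, FDR 0.0123) and in unmapped neurons (1.59, FDR 0.0195). On Day 5 the nuclear fold changes were split, with 6 of 11 positive for Mt1 and 6 of 9 for Mt2. The interaction of treatment and day was negative in 11 of 11 types for both genes, from -1.77 to -0.82 for Mt1 and from -2.48 to -0.79 for Mt2. It was called for none of the 72 member pairs tested, with 12 at an unadjusted p below 0.05, where 0.00784% of all pairs were called. The 2 days were separate sets of mice.

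**Figure D4:**
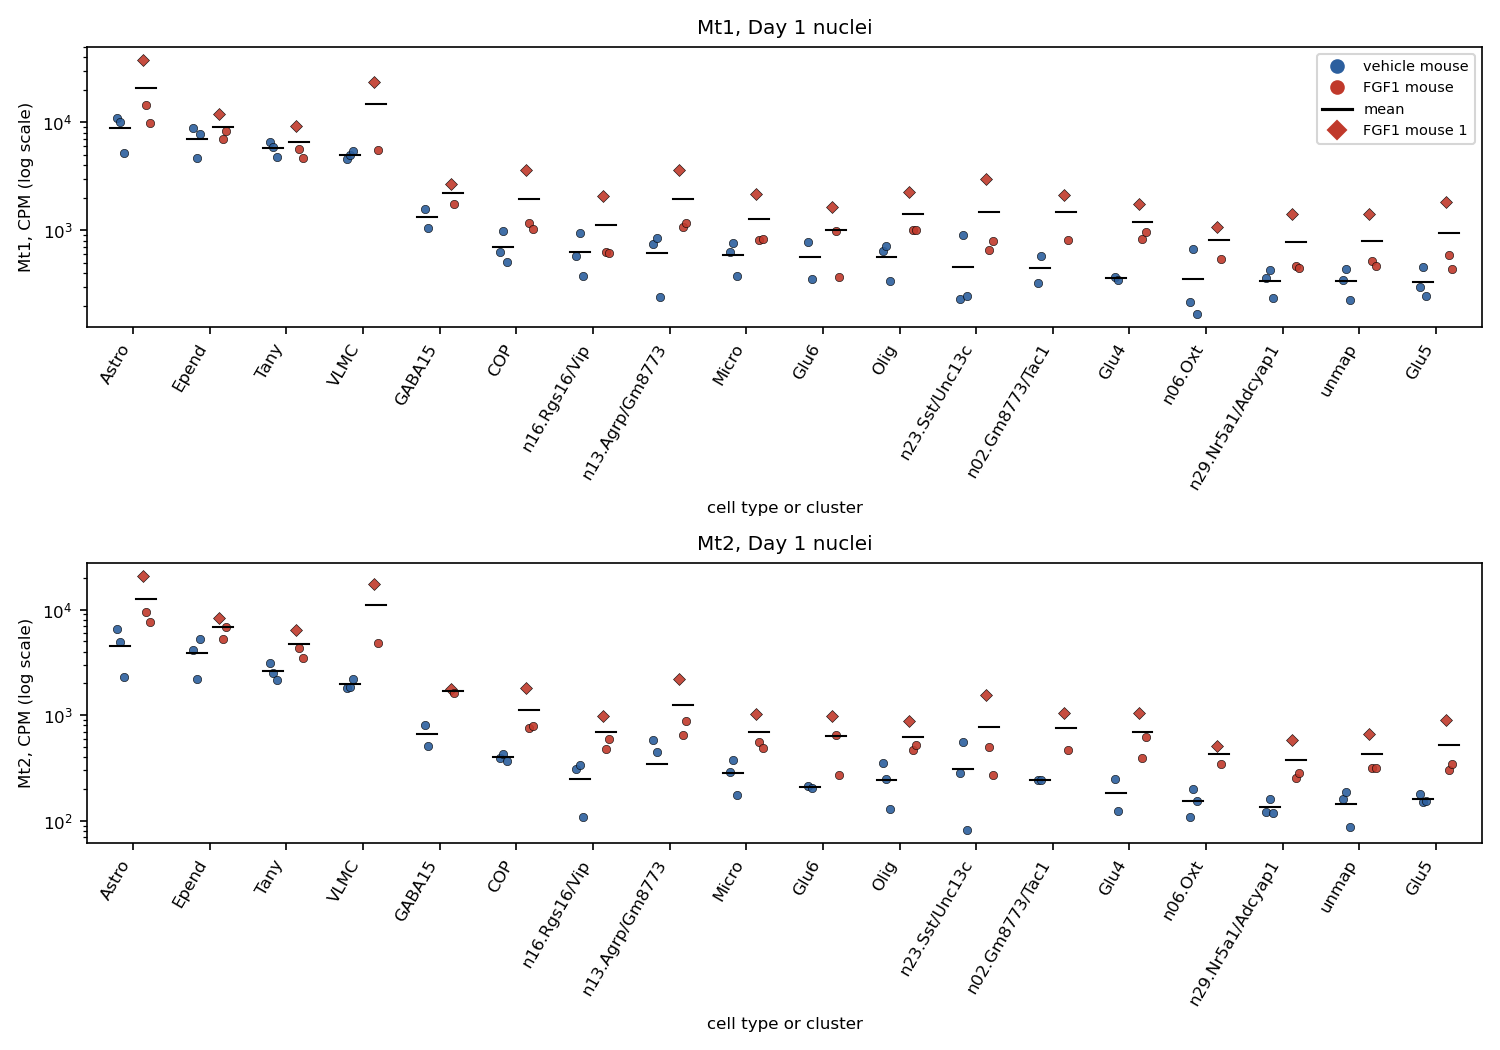
Mt1 and Mt2 levels (CPM, log axis) per mouse in the 18 tested types of Day 1 nuclei. Points are mice, bars are group means, and the diamond is FGF1 replicate 1, which is often the highest. The fold changes are positive in 18 of 18 types for both genes with that mouse and in 16 of 18 for Mt1 and 18 of 18 for Mt2 without it.

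In whole cells on Day 5, Mt1 was lower in COP cluster 9, at a lowest, median and highest level of 1354, 2243 and 2501 CPM in FGF1 mice and 2690, 3430 and 4571 CPM in vehicle mice. The groups did not overlap (-0.68 ± 0.15, FDR 0.00946). The cluster held 1583 FGF1 and 164 vehicle cells, with 16 to 51 cells in each vehicle mouse, and the call was lost without vehicle replicate 25 (-0.53, FDR 0.0937), without vehicle replicate 29 (-0.51, FDR 0.0714), with at least 30 cells a mouse (-0.48, FDR 0.318) and without the low-count filter (-0.33, FDR 0.256). Mt2 in that cluster was at 301, 582 and 741 CPM against 657, 952 and 1548 CPM, with overlap (-0.80 ± 0.21, FDR 0.0514). Over clusters Mt1 was negative in 14 of 16 (13 under RLE scaling, 12 by DESeq2, 11 without cells past the quality limit) and Mt2 in 9 of 16 (8 by DESeq2). The highest vehicle mean of Mt1 was 18095 CPM, in astrocyte cluster 4, followed by tanycyte cluster 10 (15653 CPM) and pericytes (15361 CPM). That of Mt2 was 5732 CPM, in tanycyte cluster 10, followed by astrocyte cluster 4 (5110 CPM).

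**Figure D5:**
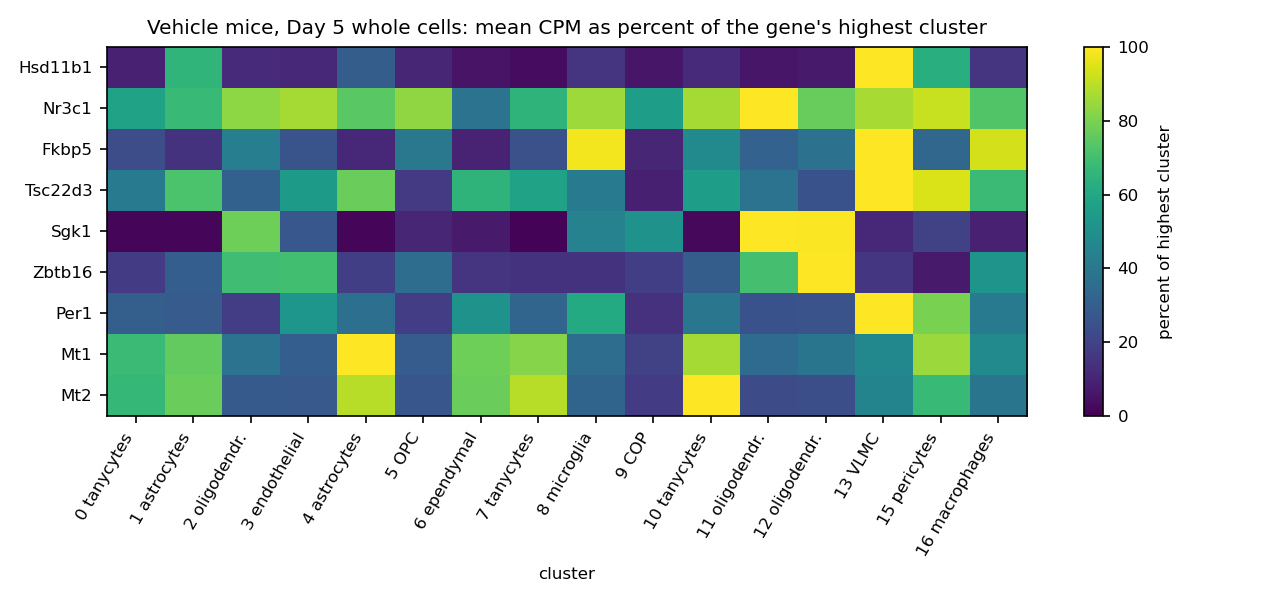
Mean level of each of the 9 genes in the 16 whole-cell clusters of vehicle mice on Day 5 (6 mice, 4 in VLMC and in macrophages), as percent of that gene's highest cluster. Sgk1 is highest in oligodendrocyte clusters, Mt1 in astrocyte cluster 4, Mt2 in tanycyte cluster 10 and Tsc22d3 in VLMC, and the VLMC value of Hsd11b1 rests on 1 mouse, without which it is 49.3 CPM, below the 71.9 CPM of astrocyte cluster 1.

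The vehicle profiles of the members over the 16 whole-cell clusters were set beside those of 13108 genes, by Pearson's r of the mean log2(CPM + 1), as a description without a test, since all points share libraries. Mt1 and Mt2 were most like each other (r = 0.97). Next came Mlc1, a membrane protein gene of astrocytes, for Mt1 (0.96), and Tmem47 (0.96) and then Mlc1 (0.96) for Mt2. Tsc22d3 was most like Bag3 (0.89), Sfxn5 (0.83) and Gstm1 (0.83), and Hsd11b1 was most like Tlcd1 (0.93), the gap junction gene Gjb2 (0.92) and Lgi4 (0.89). The closest gene was Arpc5 for Sgk1 (0.92), Tacc1 for Per1 (0.91), Psen2 for Zbtb16 (0.90), Exoc5 for Nr3c1 (0.90) and Zfp90 for Fkbp5 (0.86).

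Genes of the same pathway, from lists of receptor cofactors (17), other receptor targets (28), clock genes (15), metal handling genes (8), stress axis genes (6) and genes that respond to tissue dissociation (16), were counted in the types where a member was called. In ependymal nuclei on Day 1, where 10.2% of all genes tested were called higher, 2 of 8 tested cofactors were called, both higher: the chaperones Hspa8 (2.10 ± 0.34, FDR 0.000468) and Hsp90ab1 (1.58 ± 0.29, FDR 0.000985). Of 3 tested receptor targets, 1 was called, the small GTPase gene Rhob, which was higher (1.34). In tanycyte nuclei 1 of 4 receptor targets was called lower, Glul (-1.71 ± 0.42, FDR 0.0217), which encodes glutamine synthetase, and so was 1 of 4 clock genes, Npas2 (-1.49). All 3 dissociation response genes tested there rose, where 5.38% of all genes did: Jun (4.54), Socs3 (3.77) and Egr1 (3.56). These genes also respond to growth factors, and the part of tissue handling was not tested.

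In whole cells on Day 5, clock genes fell beside Tsc22d3 in tanycyte cluster 0, where 7 of 14 tested were called lower and 0 higher, with a median of -0.36 against 0.00 for all genes. Of all genes tested in that cluster, 2.64% were called lower and 2.64% higher. The clock genes included Dbp (-0.88 ± 0.14), Ciart (-1.47 ± 0.28), Per2 (-1.15 ± 0.25), Per3 (-0.54), Bhlhe41 (-0.55) and Tef (-0.46). Receptor targets in that cluster had 2 of 18 called lower, Glul (-0.86 ± 0.12, FDR 3.6e-05) and Cables1 (-1.25), and a median of -0.43, and 2 of 15 cofactors rose, Hsp90ab1 (0.44) and Hspa8 (0.36). In ependymal cluster 6 the same genes Glul (-0.78), Per2 (-1.30) and Hsp90ab1 (0.57) were called, with Hlf (-0.78), where 0.743% of all genes were called lower and 0.535% higher. In OPC cluster 5, Tef (-0.57) fell, and Hspa8 (0.46), Hsp90aa1 (0.45), Egr1 (1.06) and Fos (0.47) rose, where 1.18% of all genes were called lower and 1.2% higher. In astrocyte cluster 1, 1 of 17 receptor targets was called, Mfsd2a (-0.86), where 0.182% of all genes were called lower, and in clusters 4 and 9 no listed gene was called.

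With clusters 1 and 4 merged, 8 of 21 tested receptor targets were called lower in astrocytes and 0 higher, with a median of -0.44 against -0.02 for all genes, where 6.06% of all genes were called lower. They included the phosphatase gene Dusp1 (-1.88 ± 0.24), the cell cycle inhibitor Cdkn1a (-1.35 ± 0.20), Ddit4 (-1.08), Nfkbia (-1.05), Angptl4 (-0.76) and Mfsd2a (-0.70). In the same class 4 of 15 clock genes fell, Per2 (-1.20), Ciart (-1.06), Per3 (-0.86) and Nr1d1 (-0.43). So did 7 of 14 dissociation response genes, among them Fosb (-1.43), Fos (-1.49) and Egr1 (-1.29), with a median of -0.96. Dusp1 and Nfkbia also respond to dissociation, the 2 treatments filled different astrocyte clusters, and the parts of both in these counts were not tested. No stress axis gene was called in any of these types, and at most 1 of the 6 was tested in each. Of the metal handling genes, 1 was called in these types, Slc30a10, a metal transporter gene, which was higher in merged astrocytes (0.63 ± 0.18, FDR 0.0173; 1 of 7 tested), where 6.55% of all genes were called higher.

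In merged tanycytes 7 of 15 clock genes were called lower and 0 higher, among them Dbp (-1.01), Ciart (-1.39), Per2 (-1.07), Per3 (-0.59), Bhlhe41 (-0.59) and Tef (-0.59), where 2.79% of all genes were called lower. So were 3 of 20 receptor targets, Glul (-0.81), Cables1 (-1.13) and Ddit4 (-0.50), and Hsp90ab1 (0.44) and Hspa8 (0.39) were called higher, where 2.29% of all genes were. In merged OPC 4 of 10 clock genes were called lower, Dbp (-0.83), Bhlhe41 (-0.62), Per3 (-0.60) and Tef (-0.58), as was 1 of 9 receptor targets, Mfsd2a (-0.47), against 1.54% of all genes. Hsp90aa1 (0.54), Hspa8 (0.46), Egr1 (1.09) and Fos (0.52) were called higher there, against 1.7% of all genes.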

How the data were processed

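Per the labels and methods, droplet libraries (10x 3′ v2) were processed with Cell Ranger 1.2 against GRCm38 (mm10), with introns counted for nuclei, and the authors deposited whole-number UMI counts per gene and barcode, with metadata giving the sample, the batch, the cell type (nuclei) or cluster number (whole cells) and percent of mitochondrial UMIs as the authors computed them. Doublets had been removed by the authors from whole cells with Scrublet and not from nuclei, and were not called here. The 16-base tag of 638 nuclei and 3616 cells occurred in 2 or more mice.

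All barcodes were read, but the 660 nuclei that the authors labelled filtered_by_sil entered no fit. Whole-cell cluster 18 (108 cells, unnamed) entered no merged class. UMIs were summed per mouse and type, with at least 10 cells a mouse and 2 mice a group, and FGF1 was compared with vehicle without covariates in each type with edgeR 4.0.16 (filterByExpr, TMM, estimateDisp, robust glmQLFit, glmQLFTest; R 4.3.3, limma 3.58.1). Genes past an FDR of 0.05 were called. Day and treatment were crossed in 1 fit of the 10 mice of nuclei. Differences between clusters were taken per mouse as log2(CPM + 1) and tested by exact permutation (Python 3.11.15). DESeq2 1.42.0, other filters, a batch term and leave-one-out fits were alternatives. The edgeR script was tested on simulated counts.

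Clusters were named where at least 3 markers were detected in 10% of cells at 2 times the level elsewhere, and where 2 classes tied, the other had to lie under 25% of its highest level, a rule set after the profiles had been seen. The members, lists and markers were chosen with earlier results of these data known. All 9 members are described, pairs called are given in full, and listed genes are named where called beside a member, up to 6 a list. Of 9 members, 7 matched RefSeq promoter windows, trimmed to bases outside the gene's exons. P-values measure the spread between mice of 1 cohort each.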

Additional observations from a re-analysis of the deposited data

Results flagged for a closer look

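Of 24 groups of 6 mice tested for a mouse that stands apart, 3 held one, where chance gives about 1 in 20. Vehicle replicate 20 had a Tsc22d3 level of 446 CPM in tanycyte cluster 0, the highest of its group, at a gap of 0.628 of the range, just past the critical value. Without it the fall in cluster 0 kept its call. FGF1 replicate 10 had the lowest Mt1 level in COP cluster 9, 1354 CPM, at a gap of 0.724 of the range, and the same value came up once more because cluster 9 is the whole COP class.

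Sgk1 had fold changes of opposite sign on the 2 days in 2 nuclear types, none of them called, with every FGF1 mouse above the vehicle mice on Day 1 and below them on Day 5. Of all pairs, 7.97% lay higher without overlap on Day 1, and 19% lay lower without overlap on Day 5, with 2 mice a group. In oligodendrocyte nuclei, which also hold neuronal RNA, the log2 fold change was 0.63 on Day 1 and -0.39 on Day 5, and the interaction was -0.98 ± 0.39 (edgeR, FDR 1.00). In n29.Nr5a1/Adcyap1 neurons it was 1.15 on Day 1 and -0.41 on Day 5, with an interaction of -1.58 ± 0.46 (edgeR, FDR 0.735). Neither difference passed the correction, and the days were separate sets of mice.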

How the results depend on the processing

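The 2 pairs called on Day 1 kept direction and call under 21 of the 25 alternatives that gave them a value, the 6 cluster pairs under 101 of 107 and the 6 class pairs under 100 of 106, and the others kept the direction without the call. The number of member pairs called on Day 1, 2 with all mice, was 5 by DESeq2, 16 without the low-count filter, 1 with a batch block, and 0 to 5 with 1 mouse left out, the ends being without vehicle replicate 1 and without FGF1 replicate 1. On Day 5 it was 0 to 1 in nuclei (1 without vehicle replicate 28 or 38, each a fit with 1 vehicle mouse left, assumed to vary like the FGF1 mice), and in clusters, 6 with all mice, it was 11 without the filter, 10 with a batch block, and 4 (without vehicle replicate 20) to 11 (without vehicle replicate 35) with 1 mouse left out. In classes it was 10 with a batch block and 4 to 10 with 1 mouse left out. RLE scaling gave 2 calls on Day 1 and 6 in clusters. The causes of these moves were not tested.

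Day 1 mice share replicate numbers across groups, but the numbers did not pair them: deviations of same-numbered mice correlated at -0.17, -0.11 and 0.37, and the fit with the replicate number as a block called 2 pairs. In nuclei thinned to an equal number of UMIs, Tsc22d3 was under the low-count filter in ependymal and tanycyte nuclei, so neither of the 2 calls was tested there, and with at least 30 nuclei a mouse the ependymal pair was not tested either. After thinning, 2 other pairs were called, Mt2 higher in ependymal nuclei and in VLMC. The test of differences between clusters gave 0 calls under each alternative, with a smallest adjusted p of 0.0649 to 0.362 with 1 mouse left out.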
